A study of Mus musculus with 12 samples.

Results

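The effect of pressure overload common to 2 mouse genotypes was read from RNA of heart muscle cells. In 12 libraries, 6 from hearts with a narrowed aorta (transverse aortic constriction, TAC) were set against 6 from hearts with sham surgery in a model with a term for genotype and a term for surgery. The surgery term is the average change after TAC within genotype, so a gene can also be called through 1 genotype alone. It was tested for 14712 of the 49568 genes in the table. A gene is called alike here when it met 4 conditions. Its surgery term had an adjusted p under 0.05, its change had the same sign in both genotypes, the 2 changes differed by less than 1.5-fold (0.58 on the log2 scale), and all 3 TAC libraries lay beyond all 3 sham libraries within each genotype. Of the genes tested, 865 were alike, 480 of them higher and 385 lower after TAC. These conditions use measured values. The like direction and size of an alike gene's changes describe how it was picked and are not a finding.

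All mice were males and 11 weeks old when the heart was taken, 7 days after surgery. Control mice carried 1 copy of the transgene named alphaMHC-MerCreMre in the labels, a tamoxifen-inducible Cre recombinase driven by the promoter of the cardiomyocyte gene for alpha myosin heavy chain. The double knockout (dKO) mice carried the transgene named MHC-MerCreMre, likewise 1 copy, lacked Mrtf-a throughout the body and had Mrtf-b floxed on both copies (Mrtf-a-/-; Mrtf-bflox/flox), so that Mrtf-b was lost only in cells where Cre acted. All 4 groups (control sham, control TAC, dKO sham, dKO TAC) thus shared Cre and 3 daily injections of tamoxifen at 30 ug/g, given at 8 weeks. Surgery took place at 10 weeks per the labels' protocol, while the series' design text gives 8 weeks. Each group had 3 libraries, and nothing in the labels says how many hearts went into a library, so p-values measure the spread between these libraries, which may in part be technical. Cells were released from the perfused heart and cardiomyocytes were enriched by letting them sediment, which can leave other cells in the preparation.

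Myocardin-related transcription factors A and B, named Mkl1 and Mkl2 in the table, are coactivators of serum response factor. They are held in the cytoplasm by monomeric actin and enter the nucleus when actin filaments form, for instance under mechanical load. Serum response factor binds CArG boxes in the promoters of actin, myosin and other cytoskeletal genes. A loaded ventricle is known to reuse genes of the fetal heart, to lay down collagen, and to burn less fat. The genes that responded alike in control and dKO preparations are described below by their roles.

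Total counts lay between 20082000 and 29675212 per library, so 3 counts in a library correspond to 0.0935 to 0.184 CPM (a gene's reads relative to the TMM-scaled total of its library), which covers counting error only. Mkl1 stood at 7.59, 11.4 and 8.89 CPM after sham and 9.32, 16.01 and 15.6 CPM after TAC in control, and at 2.15, 2.88 and 3.20 and 2.503, 2.93 and 2.22 CPM in dKO. Every dKO library lay below every control library. Mkl2 stood at 30.1 to 44.1 CPM in control and at 15.2 to 28.1 CPM in dKO. Neither gene passed the test for surgery, with adjusted p = 0.426 and 0.824. The 8 cardiomyocyte markers summed to between 46228 and 138763 CPM in the 12 libraries, and none was at 0. In dKO sham 1 and dKO TAC 2, counts leaned toward short transcripts against their group (Spearman rho across 9752 genes −0.620 and −0.595). Control TAC 1 had the least RNA of matrix genes among the TAC libraries. The counts of the matrix, division and energy lists are also given without these libraries.

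By the surgery term, 1400 genes were higher after TAC (9.52%) and 1021 were lower (6.94%) at an adjusted p under 0.05. A change of at least 2-fold was estimated for 891 of the higher and 359 of the lower genes. A call on the average of both genotypes favours genes with like signs, so agreement among called genes largely follows from the call. Of all 14712 genes tested, 5157 had positive and 5213 negative changes in both genotypes. Nearly every called gene had the same sign in both genotypes, 1398 of 1400 and 1021 of 1021. The exceptions were Psca, at −0.02 in control and 2.48 in dKO on the log2 scale, and Pkd1l2, at −0.99 and 4.01. In 255 called genes, 158 higher and 97 lower, the genotypes differed by 2-fold or more. The alike genes made up 3.26% of the tested genes in the higher and 2.62% in the lower direction. Of these, 297 and 114 changed by at least 2-fold. Called members of a gene list below are to be read against 9.52% higher and 6.94% lower of all genes. Alike members are to be read against 3.26% and 2.62%. Just inside the limit of 1.5-fold lay Cdc25b and Ushbp1, whose changes differed by −0.58 between genotypes, and just outside it Myl1 and Dcaf4, both at −0.59.

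The pooled test reached genes that neither genotype reached alone. Tested within a genotype, 331 genes (2.25%) passed in control and 1087 (7.39%) in dKO. Of the 865 alike genes, 154 passed in both genotypes alone, and 448 passed only in the surgery term over all 12 libraries. No gene had an adjusted p under 0.05 for a difference between the TAC effects of the genotypes (0%), in edgeR's quasi-likelihood test, and 697 had an unadjusted p under 0.05 (4.74%). A p that misses the threshold does not show that the effects are equal. For 341 of the 865 alike genes, 145 higher and 196 lower, the 95% interval of the difference lay wholly within 2-fold. For the other alike genes the libraries leave room for a larger difference. The intervals lie around estimates picked to be less than 1.5-fold apart, so they are no independent evidence of likeness. The median change was 1.28 in control and 1.23 in dKO over the alike higher genes. Over the alike lower genes it was −0.71 and −0.83, against 0.00 and −0.01 over all genes. That the medians of alike genes are near each other in the 2 genotypes follows from how these genes were picked.

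**Figure D1:**
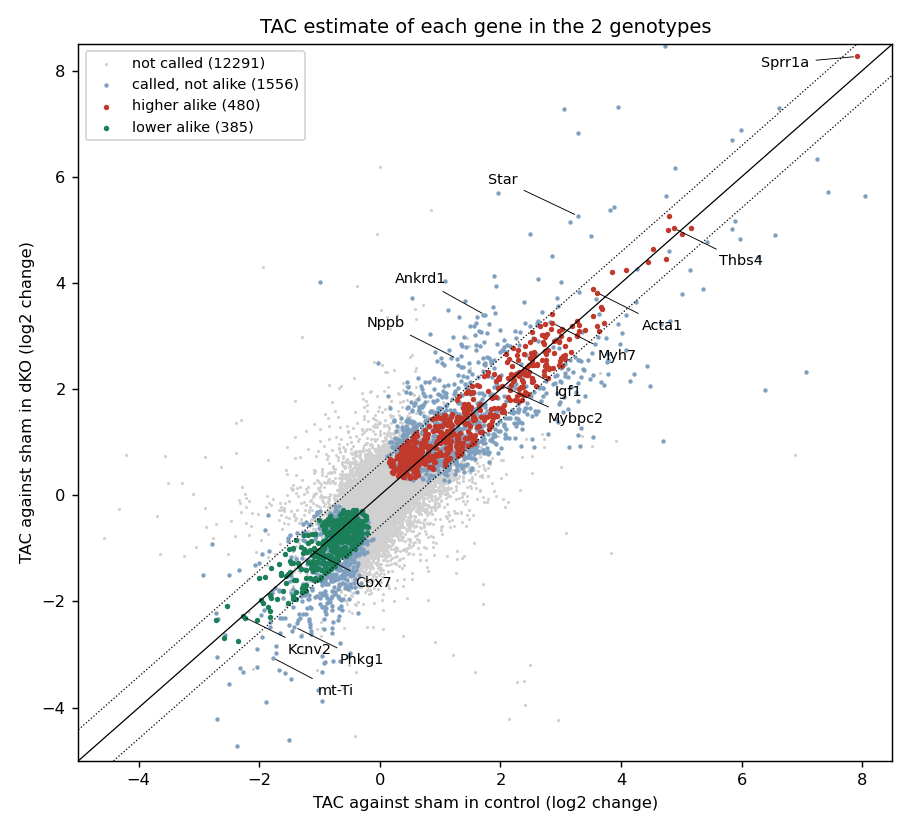
Each point is 1 of 14712 genes, with the log2 change after TAC in control on the x axis and in dKO on the y axis, 3 against 3 libraries in each. The solid line marks equal change and the dotted lines a 1.5-fold difference, between which the 480 alike higher genes (red) and 385 alike lower genes (green) lie by their definition, while Ankrd1, Nppb and Star lie above the upper dotted line.

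The contrasts in the 2 genotypes share no library, so genes chosen in one genotype can be read in the other. The 100 genes with the smallest p for an increase in control, among those averaging 5 CPM or more and in a fit of the control libraries alone, had a median log2 change of 1.53 there, although that fit called only 2 genes higher at an adjusted p under 0.05. In dKO 98 of them had the same sign and their median was 1.504. In 80 of them the dKO TAC libraries all lay above the dKO sham libraries, against 14.3% of all genes of that level. The 100 genes lowest in control had a median of −0.84 there and −0.74 in dKO, where 93 had the same sign and 63 did not overlap, against 15.6% of all genes. Chosen in dKO, the 100 higher genes had a median of 2.59 and read 2.22 in control, with 100 of the same sign and 81 without overlap (10.3% of all genes). The 100 lower genes chosen in dKO went from −1.41 to −0.79, with 98 of the same sign and 58 without overlap (10.9%).

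Sarcomere genes of the fetal and hypertrophic program were among the alike higher genes. Of 23 genes on this list, all tested, 16 rose after TAC, none fell and 1 had an unadjusted p under 0.05 in the lower direction, with a median log2 change of 1.40. The 6 alike members were Mybpc2, Acta1, Myh7, Fhl1, Flnc and Xirp1, which encode proteins of the thick filament, the thin filament and the Z-disc region. The smallest p of all alike genes was that of Mybpc2 (ENSMUSG00000038670, chr7:44501699-44524656 on GRCm38), which encodes the fast skeletal form of myosin binding protein C. Control libraries held 18.6, 20.4 and 19.6 CPM after sham and 84.0, 88.1 and 65.9 CPM after TAC. In dKO it went from 35.2, 29.3 and 31.8 CPM to 118, 123.3 and 159.8 CPM. Every TAC library lay above every sham library of either genotype. The log2 change was 2.04 ± 0.12 (SE, adjusted p = 3.38e-06), 2.02 in control and 2.06 in dKO, and the difference between them was 0.04 (95% interval -0.49 to 0.56).

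Acta1 (ENSMUSG00000031972, chr8:123891769-123894751), the skeletal alpha-actin of the fetal heart and a classic target of serum response factor, rose by a like factor from very unlike levels. Control libraries held 168, 364 and 158 CPM after sham and 3155, 3539 and 1658 CPM after TAC. In dKO the sham libraries held 8.97, 8.20 and 13.4 CPM and the TAC libraries 63.1, 261 and 107 CPM. The dKO TAC libraries thus lay in the range of control sham or below it, although they were all above dKO sham. The log2 change over both genotypes was 3.71 ± 0.38 (adjusted p = 0.000198), 3.597 in control and 3.82 in dKO, with a difference of 0.22 (95% interval -1.30 to 1.75). The genotype term of the same model, dKO minus control at equal surgery, was −4.38 ± 0.39 (SE, adjusted p = 8.34e-05). With surgery alone in the model the TAC effect on Acta1 was 3.61 and missed the threshold (adjusted p = 0.052).

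Myh7, which encodes the slow beta myosin heavy chain, also began from unlike levels, but higher in dKO. It went from 95.5, 96.2 and 135 to 393, 379 and 1599 CPM in control and from 433, 374 and 433 to 4212, 2212 and 5339.8 CPM in dKO. The groups did not overlap within a genotype, while dKO sham reached the level of 2 of the control TAC libraries. Its log2 change was 3.05 ± 0.37 (adjusted p = 0.000329) and the genotype term 2.12 ± 0.36 (adjusted p = 0.0152). Reads of Myh7 can be shared with Myh6 over a stretch of up to 465 nt, and Mhrt lies antisense to it. Myh6, the adult alpha heavy chain, had a log2 change of -0.64 ± 0.23 and was not called (adjusted p = 0.0728). Its call depends on the method and on 1 library, with adjusted p = 0.0102 in DESeq2, 0.043 in limma-voom and 0.0152 without control TAC 1.

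Sprr1a, a small proline-rich protein known to be induced in stressed cardiomyocytes, had the largest change among alike genes of at least 5 CPM. Its sham libraries held 6, 1 and 2 counts in control and 5, 5 and 22 counts in dKO, so the fold rests on a few reads. The levels after TAC were 0.824, 64.4 and 29.1 CPM in control and 104, 229 and 85.3 CPM in dKO. The lowest of these, in control TAC 1, was about as low as the highest dKO sham library, at 0.828 CPM. The log2 change was 8.16 ± 0.92 (adjusted p = 0.000285), and the interval of the difference, −4.92 to 5.62, shows how loosely its likeness is known.

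Among the other alike higher genes with small p was Tnfrsf12a, the receptor of the cytokine TWEAK. It stood at 41.6, 38.1 and 37.1 CPM after sham and 117, 156 and 77.6 CPM after TAC in control. Its dKO levels were 58.0, 37.9 and 49.8 CPM after sham and 127, 131 and 135 CPM after TAC. The lowest TAC library of all exceeded the highest sham library, and the log2 change was 1.51 ± 0.16 (adjusted p = 0.000259). Uck2, which phosphorylates uridine and cytidine for nucleotide salvage, went from 35.4, 37.2 and 35.3 to 104, 204 and 67.1 CPM in control and from 38.3, 36.7 and 42.7 to 179, 249.6 and 160.2 CPM in dKO. Here too no TAC library fell within the sham range (log2 change 2.06 ± 0.24, adjusted p = 0.000285). Nlrc3, a member of the family of nucleotide-binding receptors, went from 1.74, 2.23 and 1.82 to 6.63, 10.1 and 7.93 CPM in control and from 1.84, 3.597 and 4.59 to 23.5, 15.0 and 25.7 CPM in dKO. It rose in both, from a higher level in dKO, with a log2 change of 2.38 ± 0.24 (adjusted p = 0.000169) and a genotype term of 1.12 ± 0.23 (adjusted p = 0.0482).

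**Figure D2:**
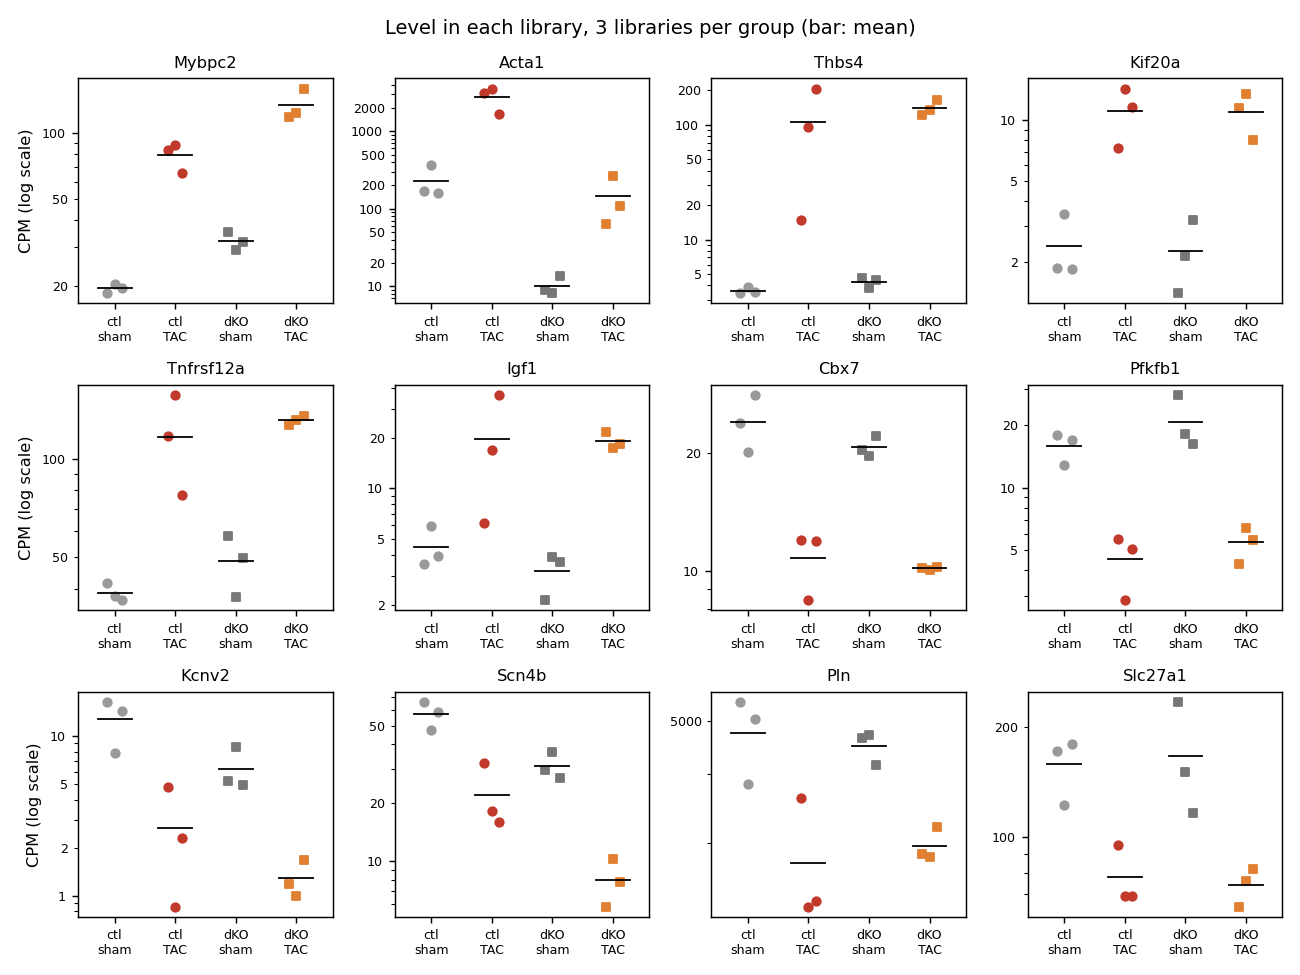
Level of 12 alike genes in each library, in CPM on a log scale that differs between panels, with control as circles, dKO as squares and the group mean as a bar. In each panel the 3 TAC points lie beyond the 3 sham points of the same genotype, as the definition requires, and Acta1 shows a similar step from a far lower level in dKO.

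The 200 bases before the transcription start of 3 of these genes and of 2 genes whose estimates were at least 2-fold apart between genotypes are shown because they carry short motifs of factors known from heart muscle. Sequences are from RefSeq (GRCm38.p6), 5′ to 3′ on the strand of the gene. Capitals mark M-CAT elements, bound by TEAD factors, AP-1 sites, GATA sites and the CArG box, on either strand.
Mybpc2 (chr7:44524670-44524869, minus strand): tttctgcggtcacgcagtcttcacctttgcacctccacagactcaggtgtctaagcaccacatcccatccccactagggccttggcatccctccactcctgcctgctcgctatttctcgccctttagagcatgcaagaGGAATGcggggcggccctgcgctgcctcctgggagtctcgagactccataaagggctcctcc
Acta1 (chr8:123894776-123894975, minus strand): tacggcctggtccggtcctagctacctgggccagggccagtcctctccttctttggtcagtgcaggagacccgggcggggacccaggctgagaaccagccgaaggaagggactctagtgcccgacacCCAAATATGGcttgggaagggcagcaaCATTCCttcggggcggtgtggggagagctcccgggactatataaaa
Sprr1a (chr3:92485882-92486081, minus strand): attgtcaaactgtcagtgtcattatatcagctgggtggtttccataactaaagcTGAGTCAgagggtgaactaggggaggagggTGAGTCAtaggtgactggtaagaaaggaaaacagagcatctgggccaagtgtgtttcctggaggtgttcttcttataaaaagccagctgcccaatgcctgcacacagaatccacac
Nppb (chr4:147985700-147985899, plus strand): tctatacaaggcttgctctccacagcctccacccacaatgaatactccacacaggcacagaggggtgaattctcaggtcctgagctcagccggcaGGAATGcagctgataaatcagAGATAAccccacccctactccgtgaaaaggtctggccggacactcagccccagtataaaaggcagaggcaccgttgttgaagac
Ankrd1 (chr19:36119845-36120044, minus strand): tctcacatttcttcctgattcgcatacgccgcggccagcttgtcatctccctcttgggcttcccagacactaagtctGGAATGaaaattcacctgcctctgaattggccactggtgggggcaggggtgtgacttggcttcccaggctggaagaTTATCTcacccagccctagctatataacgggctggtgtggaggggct
Mybpc2 has an M-CAT at −62, counted from the first transcribed base as 1, Acta1 an M-CAT at −46 and a CArG box at −73, and Sprr1a has AP-1 sites at −146 and −116. Nppb has an M-CAT at −105 and a GATA site at −84, and Ankrd1 an M-CAT at −123 and a GATA site at −47. A match is a run of letters and not a bound site.

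Promoter windows from 250 bases before to 50 bases after the start were held for 11092 of 14712 tested genes, 390 of the 480 alike higher and 288 of the 385 alike lower genes. A gene with several starts was counted once, if any of its windows held the letters. M-CAT letters (CATTCC, either strand here and below) were found for 14.66% of all genes with a window, 19.49% of alike higher and 12.85% of alike lower genes. AP-1 letters (TGANTCA) were in 6.39%, 8.72% and 7.29%, and GATA letters (AGATAA) in 7.89%, 5.9% and 9.38%. A CArG box was in 1.6%, 2.05% and 1.04%. These shares of genes are descriptions and were not tested, and genes with more windows have more room for a match.

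Genes of the extracellular matrix rose in large numbers. All 19 collagen chains rose, with a median log2 change of 2.70, and 13 were alike. Of 28 matricellular and other matrix proteins 24 rose, none fell (also at an unadjusted p under 0.05), and 9 were alike, with a median of 2.73. Of 24 enzymes and inhibitors that process matrix 16 rose, among them 8 alike, with a median of 0.94. Timp4 fell, at −0.86, a call that was lost with 8 of 12 single libraries left out. The counts of called genes are to be read against 9.52% and 6.94% of all genes, and they were 18, 24 and 18 higher without dKO sham 1 and dKO TAC 2. Without control TAC 1 they were 19, 25 and 18, with medians of 2.89, 2.93 and 1.06. These lists were chosen with results of the same data known, so their direction is no independent evidence.

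Thbs4, the matricellular thrombospondin 4, went from 3.43, 3.85 and 3.50 to 14.8, 95.1 and 207 CPM in control. In dKO it went from 4.67, 3.78 and 4.48 to 121, 135 and 166 CPM. Control TAC 1 was the lowest TAC library, yet above every sham library, and the log2 change was 4.95 ± 0.48 (adjusted p = 0.000146). Postn, which encodes periostin of activated fibroblasts, showed the same order from 29.2, 48.6 and 23.6 to 136, 763 and 2364 CPM in control, and from 16.04, 35.0 and 48.8 to 1289, 690.3 and 1038 CPM in dKO. Its TAC libraries spread widely in control and narrowly in dKO, and its log2 change was 4.96 ± 0.58 (adjusted p = 0.000285) with a difference of -0.09 (95% interval -2.31 to 2.13). The alike genes Tnc (tenascin C), Col12a1, Lox (the collagen crosslinking lysyl oxidase) and Timp1 (an inhibitor of metalloproteinases) had log2 changes of 5.10 ± 0.74, 5.02 ± 0.65, 4.89 ± 0.64 and 4.16 ± 0.54. Col8a1 and the microfibril gene Mfap5 followed at 3.71 ± 0.44 and 2.89 ± 0.36. Every interval of the difference for these 8 genes reached beyond 2-fold.

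The same libraries differed in markers of other cells. Of 10 markers of activated fibroblasts, 8 rose and none fell (none fell at an unadjusted p under 0.05 either), 8 of the 10 being also on other lists. Their sum lay between 97.6 and 185 CPM after sham and 288 and 3569 CPM after TAC in control, and between 74.2 and 111 CPM after sham and 1098 and 1863 CPM after TAC in dKO. None of the 10 was at 0 in any group. Macrophage and myeloid markers rose in 7 of 18 and fell in none, summing to 199 to 416, 279 to 900, 303 to 377 and 337 to 597 CPM in the same order of groups, and without dKO sham 1 and dKO TAC 2 they rose in 4. They also rose in 4 without control sham 1, control sham 3, control TAC 3, dKO TAC 1 or dKO TAC 2, and in 12 with the length trend removed. Of 12 markers of resident fibroblasts, 4 rose and 3 fell, Dpep1, Gsn and Scara5. The part of other cells in the rise of matrix genes was not tested. In bulk RNA a change in the number of cells of a type and a change in RNA per cell cannot be told apart.

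Of 27 ligands of the TGF-beta and other growth factor families that were tested, 10 rose and 2 fell, and 3 were alike. Over all genes tested, 9.52% rose and 6.94% fell. Igf1, the growth factor that drives heart growth, went from 3.52, 5.95 and 3.91 to 6.22, 16.9 and 35.9 CPM in control and from 2.15, 3.85 and 3.61 to 21.8, 17.3 and 18.3 CPM in dKO. The rise in control TAC 1 was small, at 6.22 CPM against a highest sham library of 5.95 CPM. The log2 change was 2.35 ± 0.34 (adjusted p = 0.000878). Hbegf, a ligand of the EGF receptor, went from 22.2, 17.8 and 29.5 to 38.6, 83.3 and 60.5 CPM in control and from 25.9, 20.5 and 21.5 to 62.6, 51.7 and 86.3 CPM in dKO. All TAC libraries were above all sham libraries (log2 change 1.48 ± 0.20, adjusted p = 0.000565). The third, Fgf16, fell by 0.62 on the log2 scale. Tgfb2 and Tgfb3 rose by 2.10 and 1.35 without being alike, and Tgfb1 had a change of 0.34 and was not called.

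Genes of cell division rose in step. Of 26 genes of G2, mitosis and chromosome segregation 25 rose, with a median log2 change of 2.61 (2.497 in control and 2.61 in dKO), and 19 of them were alike. Without dKO sham 1 and dKO TAC 2 22 rose, and without control TAC 1 25, with a median of 2.75. The remaining member, Cenpf, had a change of −0.31 and was not called. Kif20a, a kinesin of cytokinesis, went from 1.87, 3.47 and 1.86 to 7.34, 14.3 and 11.7 CPM in control and from 1.41, 2.16 and 3.24 to 11.4, 13.5 and 8.01 CPM in dKO. Racgap1, which organizes the midzone of the spindle, went from 2.01, 3.17 and 1.23 to 7.26, 18.7 and 15.4 CPM and from 0.737, 2.52 and 2.48 to 11.7, 14.0 and 8.79 CPM. Both stood clear of every sham library, at log2 changes of 2.23 ± 0.25 and 2.62 ± 0.33 (adjusted p = 0.000285 and 0.000382). Tacc3, a spindle protein outside the list, rose by 2.07 ± 0.23. Kif20a overlaps Cdc23 and Tacc3 overlaps Tmem129 on the opposite strand, and how strand was treated in the counting is not given in the sources used. Of 26 genes of DNA replication and the G1 to S step 14 rose and none fell, with a median of 0.67 and 6 alike. The higher calls ranged from 9, without control TAC 2, to 16 in the alternatives, and were 13 without dKO sham 1 and dKO TAC 2 and 14 without control TAC 1. Uhrf1, which keeps DNA methylation after replication, was at 2.49 ± 0.32 and Rrm1, a subunit of ribonucleotide reductase, at 0.67 ± 0.14. Uhrf1 shares 1590 nt with Gm5648, so its reads could be split. Levels of division genes in control TAC 1 were the lowest of the TAC libraries, with a list median of 1.72 above its sham mean against 2.31 to 3.17 in the other 5. Which cells these RNAs came from was not tested, and the fibroblast and macrophage values above moved with them.

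The cell cycle genes homology region (CHR) is the element through which the DREAM and MuvB complexes are known to time genes of G2 and mitosis. Its letters (TTTGAA on either strand, searched after the list's rise was known) were in 17 of 23 list members with a promoter window, 73.91%. Over all genes with a window the share was 14.33%. Among the 16 alike members with a window the letters were in 11, 68.75%, against 21.03% of all alike higher genes with a window. The sites nearest the start are shown for 10 of these 11 genes on the strand of the gene with 10 bases on either side, the letters in capitals. The set is shown because these genes rose in step and share the letters.
Anln: ggcgctgaaaTTCAAAtTTTGAAcgg
Aurka: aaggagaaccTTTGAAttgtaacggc
Ccnb2: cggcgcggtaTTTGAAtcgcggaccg
Cdk1: ccgcggcgagTTTGAAactgctggca
Kif11: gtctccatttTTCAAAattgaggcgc
Kif23: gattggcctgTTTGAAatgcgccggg
Prc1: tctggctcggTTTGAAttccgcgggg
Racgap1: ggtgcgtgatTTTGAAccggatctgg
Top2a: tagataaaggTTCAAAtgaaactagg
Ube2c: agggttgcaaTTCAAAcgcgggcggc
The capitals begin between base −29 (Ube2c) and base 33 (Aurka) from the start. They read TTCAAA in Kif11, Top2a and Ube2c, TTTGAA in 6 others, and Anln holds both, of which the first is the nearest to the start. A match is a description of the window.

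Among 30 cytoskeletal and other genes listed as targets of serum response factor or its MRTF coactivators, 11 rose and 1 fell. The lower one was the transcription factor gene Egr1, a call lost in most fits that left out a library. Alike were 6 of the 30 (Dstn, Itga5, Pdlim5, Tln1, Wdr1 and Zyx). Itga5, the fibronectin receptor subunit, went from 69.7, 61.3 and 58.0 to 99.9, 158 and 121 CPM in control and from 64.4, 63.4 and 69.2 to 161, 133 and 155 CPM in dKO. It rose by 1.10 ± 0.13 (adjusted p = 0.000285), and its difference of 0.18 (95% interval -0.37 to 0.74) lay within 2-fold. Wdr1, which helps cofilin take actin filaments apart, changed by 0.68 ± 0.12, with a difference of 0.07 (95% interval -0.45 to 0.59). Dstn, an actin depolymerizing factor, changed by 0.66 ± 0.12 in an alike manner and had a genotype term of −0.84 ± 0.12 (adjusted p = 0.00637). Srf itself was not called (-0.20 ± 0.13, adjusted p = 0.317). In the alternatives the list held between 6 and 15 higher calls, 6 without control sham 1 or control TAC 2 and 7 without control sham 3 or control TAC 3. Of 20 tubulins, motors and microtubule proteins 9 rose and none fell, and alike were Map1b at 1.67 ± 0.37 and the plus-end protein Mapre1 at 0.48 ± 0.11. Between 3 and 11 of them rose in the alternatives, 3 without control sham 1, control sham 3 or control TAC 2 and 4 without dKO sham 2 or dKO TAC 2.

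Calls among genes of protein synthesis and quality control are to be read against 9.52% higher and 6.94% lower of all genes tested. Of 30 cytosolic ribosomal proteins 1 rose, Rpl3, at 0.76, and none fell. Of 27 proteasome subunits none rose or fell, none had an unadjusted p under 0.05, and none was called in any of the alternatives run, DESeq2 and limma-voom included. The changes of 20 of the 27 were negative in both genotypes and none was positive in both, with a median of −0.22. In dKO sham 1 the proteasome list stood 0.69 above its sham mean, and without dKO sham 1 and dKO TAC 2 the median was −0.06. Ribosome biogenesis had 1 higher call of 25 (Rrp12), and aminoacyl-tRNA synthetases and amino acid synthesis had 1 higher (Aldh18a1) and 1 lower (Ddit3) of 31. In the endoplasmic reticulum 4 of 28 rose (9 at an unadjusted p under 0.05) and 1 fell (Herpud1). The higher calls ranged from 2, without control sham 1 or control TAC 2, to 8 in DESeq2. Alike were P4hb (protein disulfide isomerase, 0.67 ± 0.14) and Ero1l (its oxidase, 0.55 ± 0.14). Ero1l missed the threshold without control sham 1 or without control TAC 2 (adjusted p = 0.0587 and 0.0547). Of 24 cytosolic chaperones 2 rose (from 1, without control TAC 2 or dKO TAC 1, to 6 with the length trend removed), Dnajb4 and the alike Hsp90aa1 (0.82 ± 0.18), whose reads could be shared with Gm12346 and Gm5844 over up to 2255 nt.

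**Figure D3:**
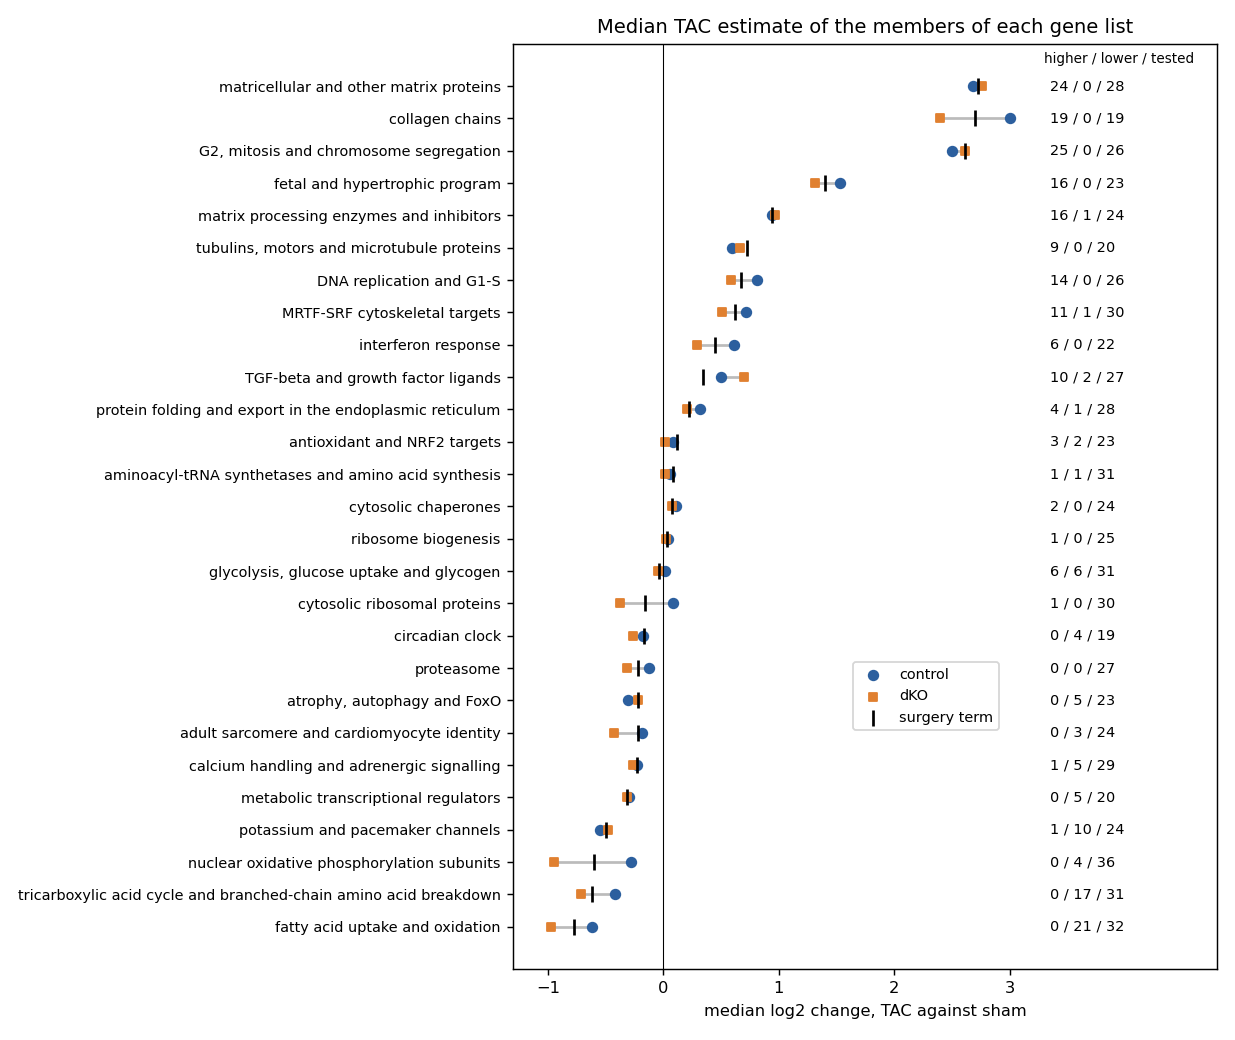
Median log2 change after TAC over the tested members of 27 gene lists in control (circles), in dKO (squares) and in the surgery term (bars), with the numbers of members called higher, called lower and tested at the right. The collagen, matricellular and G2 lists lie near 2.6 to 2.7, and fatty acid oxidation, the tricarboxylic acid cycle and oxidative phosphorylation lie lowest, with the median of oxidative phosphorylation at −0.28 in control and −0.94 in dKO.

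Many genes of fat and amino acid use fell after TAC. Of 32 genes of fatty acid uptake and oxidation 21 fell and none rose, with a median log2 change of −0.78, and 4 were alike, among them Slc27a1, Ucp3 and Acads. Of 31 genes that serve the tricarboxylic acid cycle or break down branched-chain amino acids 17 fell and none rose, with a median of −0.62. Neither list had a member higher at an unadjusted p under 0.05. Between 15 and 24 members of the first and 7 and 21 of the second fell in the alternatives, the second with 10 or fewer without control sham 1, control sham 3, control TAC 2, control TAC 3 or any 1 dKO TAC library. Without dKO sham 1 and dKO TAC 2, 23 and 14 fell, and without control TAC 1, 24 and 21. Cardiomyocyte markers moved the same way in the preparations, with a median of −0.65 and 1 of 8 called, Pln. Their part in the lower values was not tested.

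Slc27a1, a fatty acid transporter, went from 172, 122 and 179.9 to 95.4, 69.1 and 69.3 CPM in control and from 234, 151 and 117 to 64.8, 76.0 and 82.0 CPM in dKO. Its groups did not overlap, at -1.09 ± 0.18 (adjusted p = 0.00173). Bckdha, a subunit of the branched-chain ketoacid dehydrogenase, and Pccb, a subunit of propionyl-CoA carboxylase, changed by -1.19 ± 0.25 and -0.62 ± 0.16. Pccb missed the threshold without control sham 3, control TAC 2 or dKO TAC 1 (adjusted p = 0.0519, 0.0523 and 0.0518).

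Oxidative phosphorylation shows why same sign and alike were kept apart. All 36 nuclear-encoded subunits tested had negative changes in both genotypes, yet 4 were called lower (30 at an unadjusted p under 0.05) and none was alike. The median was −0.28 in control and −0.94 in dKO. Leaving out dKO sham 1 and dKO TAC 2 gave a median of −0.36 and 10 lower calls, and leaving out control TAC 1 gave 9. None was called without control sham 1, control sham 3, control TAC 2, control TAC 3 or any 1 dKO TAC library. In dKO sham 1 the list stood 0.90 above its sham mean, and the 2 other dKO sham libraries stood at −0.42 and −0.51. The mitochondrial genome's own genes held a share of counts of 31.0% ± 1.57 (SD, n = 3) after sham and 25.4% ± 2.10 after TAC in control, and of 24.8% ± 7.16 and 21.5% ± 5.37 in dKO. The share was 4.47 percentage points lower after TAC and did not pass an exact permutation test of surgery within genotype (p = 0.125, 2-sided, smallest possible 0.005). Without dKO sham 1 it was 6.53 points lower (exact p = 0.01). Leaving out any other single library gave an exact p between 0.105, without control TAC 1, and 0.335, without dKO TAC 2.

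Sugar metabolism moved in both directions, with calls to be read against 9.52% higher and 6.94% lower of all genes tested. Of 31 genes of glycolysis, glucose uptake and glycogen 6 rose and 6 fell, and 6 were alike. Those higher were Pfkp, Slc2a1, Pgam1, Pgk1 and Ppp1r3c, and the lower one was Pfkfb1. Pfkp, the platelet-type phosphofructokinase, went from 52.5, 64.3 and 45.2 to 122.8, 182 and 92.5 CPM in control and from 86.0, 83.5 and 87.6 to 216, 185 and 259 CPM in dKO, a change of 1.33 ± 0.17 (adjusted p = 0.000382). In each genotype the TAC range lay above the sham range. Pfkfb1, which makes and breaks down the activator of phosphofructokinase, went the other way, from 17.9, 12.9 and 17.0 to 5.65, 2.88 and 5.09 CPM and from 27.9, 18.2 and 16.3 to 4.30, 6.42 and 5.63 CPM. The change was -1.87 ± 0.20 (adjusted p = 0.000239), with Apex2 on the opposite strand. Between 2 and 9 members of the list rose in the alternatives, 3 without control TAC 2 and 2 without dKO sham 2. Between 3 and 7 fell, 3 without control sham 1, control sham 3, control TAC 2, control TAC 3, dKO TAC 1 or dKO TAC 2.

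Among 20 transcriptional regulators of metabolism 5 fell and none rose (9 lower and 0 higher at an unadjusted p under 0.05), against 6.94% and 9.52% of all genes tested. Alike were 3 of the 20: Klf15, Rxra and Rxrb. The lower calls ranged from 2 to 8, with 2 without control TAC 2, control TAC 3 or any 1 dKO TAC library, 3 without control sham 1 or control sham 3, and 8 in DESeq2 and without control TAC 1. Klf15, a factor known to promote lipid use and branched-chain amino acid breakdown, went from 65.1, 50.4 and 53.0 to 35.1, 20.7 and 21.7 CPM in control. Its dKO libraries went from 84.8, 49.4 and 34.1 to 30.8, 16.6 and 29.5 CPM. The change was -1.12 ± 0.23 (adjusted p = 0.00647) and the difference between genotypes -0.01 (95% interval -1.04 to 1.02). Rxra, the retinoid X receptor that pairs with PPARs, changed by -0.52 ± 0.10. Ppara and Ppargc1a were not called, at −0.15 and −0.36.

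Of 24 potassium, pacemaker and associated channel genes 10 fell and 1 rose, Kcne1, and 13 were not called (14 lower and 4 higher at an unadjusted p under 0.05). Over all genes tested, 6.94% fell and 9.52% rose. The alike members of the channel list were 5, all lower. Kcnv2, a modifying subunit of voltage-gated potassium channels, went from 16.3, 7.83 and 14.4 to 4.83, 0.854 and 2.28 CPM in control and from 5.22, 8.53 and 4.93 to 1.18, 0.998 and 1.68 CPM in dKO. It was the lowest alike gene of at least 5 CPM at -2.28 ± 0.35 (adjusted p = 0.00123), with estimates of −2.27 in control and −2.28 in dKO and a difference of -0.01 (95% interval -1.19 to 1.17). Scn4b, a sodium channel beta subunit, went from 65.9, 47.2 and 59.0 to 32.0, 18.1 and 15.9 CPM in control and from 29.4, 36.5 and 26.7 to 5.85, 10.3 and 7.80 CPM in dKO. The surgery term was -1.66 ± 0.21 (adjusted p = 0.000412), and the genotype term was −1.17 ± 0.21 (adjusted p = 0.0219), so the level was lowest in dKO TAC. The other alike channel genes were Kcnh2, Kcnj3 and Kcnj8, at −0.92, −1.04 and −0.87. Kcnj8 is also a pericyte marker, and it missed the threshold without dKO TAC 1 (adjusted p = 0.0523). Of 13 pericyte and smooth muscle markers 4 rose and 2 fell, so Kcnj8 does not stand for that list. In the alternatives between 1 and 5 of them rose and between 0 and 3 fell.

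Of 29 genes of calcium handling and adrenergic signalling 5 fell and 1 rose, Grk5, against 6.94% lower and 9.52% higher of all genes tested. The lower calls ranged from 3, without control sham 3, control TAC 2, control TAC 3 or dKO TAC 1, to 8 without dKO sham 1 and 9 with the length trend removed. Pln, which restrains the calcium pump of the sarcoplasmic reticulum, went from 5402, 3838 and 5032 to 3614, 2295 and 2345 CPM in control. In dKO it went from 4649.9, 4715 and 4145 to 2854, 2828 and 3199 CPM. The groups came close in control, where the highest TAC library lay just under the lowest sham library, and the change was -0.70 ± 0.17 (adjusted p = 0.0144). Camk2b, a subunit of calmodulin-dependent kinase II, was the other alike member at -0.74 ± 0.15. Atp2a2, the pump itself, fell by 0.73 but was not alike. Of 24 adult sarcomere and cardiomyocyte identity genes Tcap, Hrc and Pln fell and none rose (10 lower and 2 higher at an unadjusted p under 0.05), and 5 fell and 1 rose without dKO sham 1 and dKO TAC 2. Without control TAC 1 7 fell. Cacna1s, the calcium channel subunit of skeletal muscle, was alike at -1.31 ± 0.20.

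Other alike lower genes with small p had varied roles. Cbx7, a reader of Polycomb marks, went from 23.9, 20.2 and 28.1 to 12.02, 8.43 and 11.9 CPM in control and from 20.3, 19.7 and 22.1 to 10.2, 10.1 and 10.2 CPM in dKO. The TAC and sham ranges lay apart in both genotypes, and the change was -1.09 ± 0.13 (adjusted p = 0.000285). Pim3, a serine/threonine kinase, changed by -1.36 ± 0.18, and Rbfox1, a splicing regulator of muscle and neurons, by -1.13 ± 0.16. Egflam, a matrix ligand of dystroglycan, changed by -1.09 ± 0.15. Xdh, the xanthine oxidase of purine breakdown, and Aqp1, a water channel of the endothelium, changed by -1.05 ± 0.16 and -1.04 ± 0.16. Smco1 was at -1.55 ± 0.24.

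The smaller lists had few alike members, to be read against 3.26% alike higher and 2.62% alike lower of all genes tested. Their calls are to be read against 9.52% higher and 6.94% lower. Among 23 genes of atrophy, autophagy and FoxO signalling 5 fell, none rose (1 at an unadjusted p under 0.05), and the alike ones were Gadd45a (-1.52 ± 0.28), Foxo4 (-0.52 ± 0.13), Map1lc3b and Txnip (both −0.52). The lower calls ranged from 2, without control sham 1, control sham 3, control TAC 2 or dKO TAC 2, to 7, with 3 without dKO sham 2 or dKO TAC 1. Of 19 clock genes 4 fell and none rose, and Cry2, a repressor of the clock, was alike at -0.49 ± 0.11. Of 23 antioxidant genes 3 rose (Gpx3, Hmox1 and Nox4) and 2 fell (Sod2 and the alike Gstm1, -1.18 ± 0.23). Of 22 interferon response genes 6 rose and none fell, and Ifit2 was alike at 0.80 ± 0.24, a call that was lost in 9 of 12 fits that left out 1 library each. Of 14 endothelial markers 2 fell, both alike, Rgcc at -1.10 ± 0.26 and Ly6c1 at -0.49 ± 0.14, the latter with reads that may be shared with Ly6c2 over 621 nt. Ly6c1 missed the threshold in 6 alternatives, with a change of −0.29 (adjusted p = 0.113) once the trend with transcript length was removed. Epicardial and nerve markers and blood markers held no call among 11 and 9 tested (1 lower and 0 at an unadjusted p under 0.05).

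**Figure D4:**
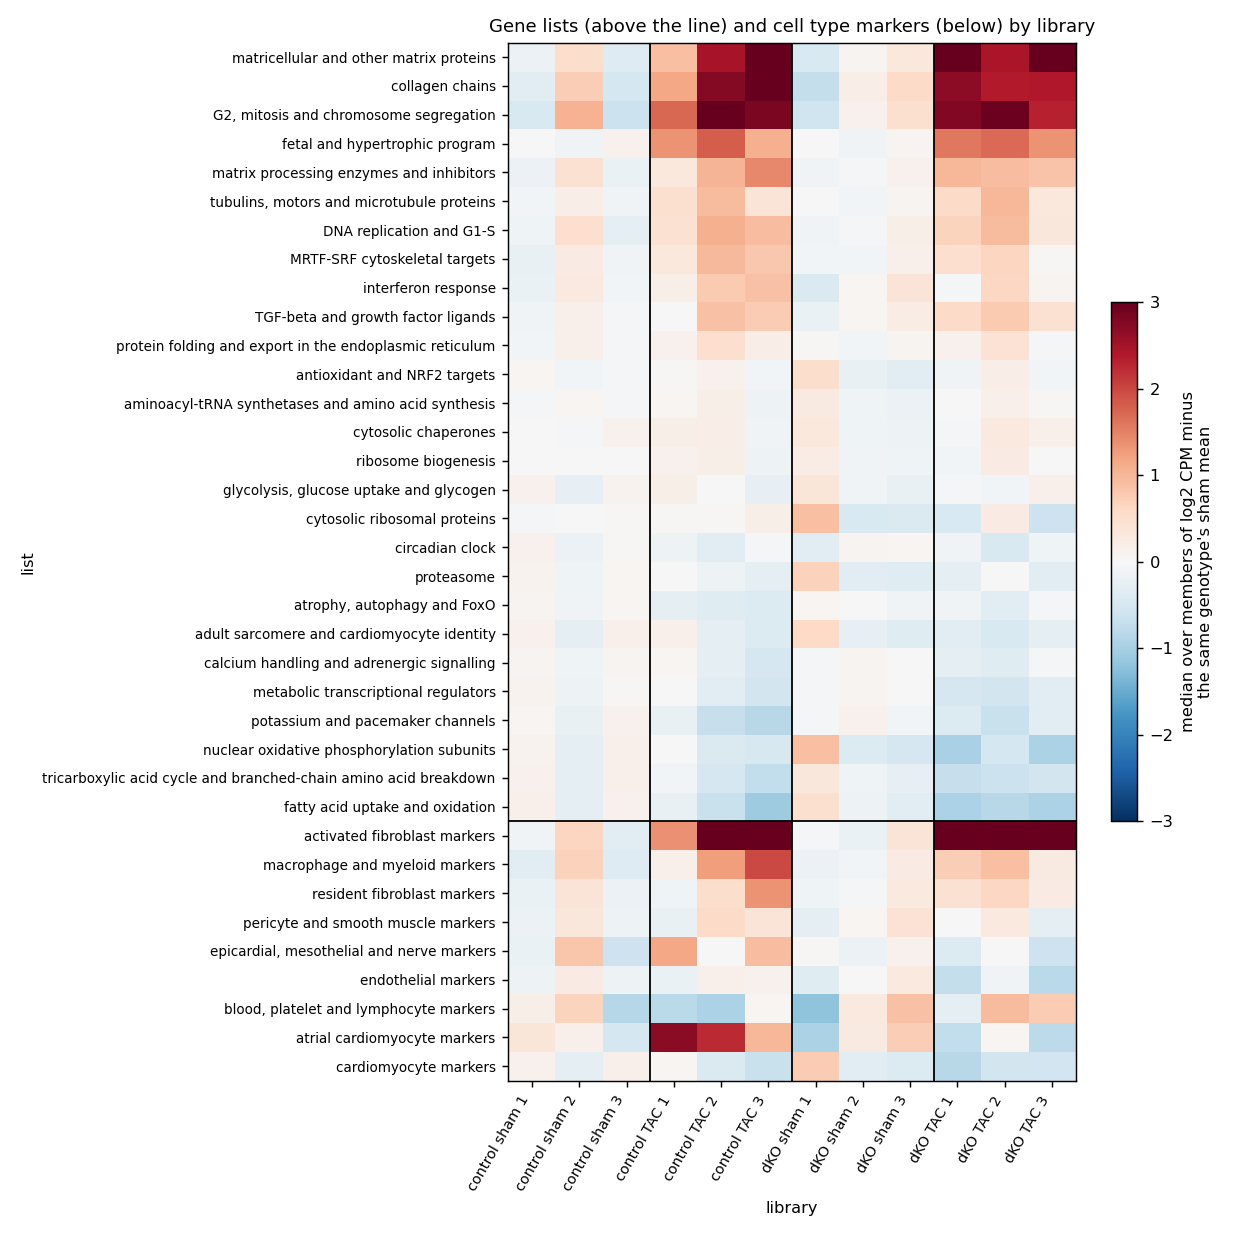
Median over the members of each list of the log2 CPM minus the mean of the sham libraries of the same genotype, for 12 libraries, on a colour scale cut at −3 and 3. Activated fibroblast markers and the matrix lists are high in 5 TAC libraries and lower in control TAC 1, and dKO sham 1 stands above its group in oxidative phosphorylation and ribosomal proteins.

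Of 9 atrial markers tested 3 rose (Nppa, Dhrs9 and Dkk3), 1 fell (Stard10, a call lost in most fits that left out a library), and none was alike. Their changes were positive in both genotypes for 3 and negative in both for 3. The remaining 3 had opposite signs. These 3, Sln, Myl7 and Myl4, had changes of 2.1 to 2.5 in control and −4.2 to −3.2 in dKO on the log2 scale, and none was called by the surgery term. Their difference between genotypes missed the adjusted threshold too, as it did for every gene. Nppa, a natriuretic peptide that is atrial in the unloaded adult and returns in the loaded ventricle, rose in both. It went from 112, 96.6 and 60.8 to 810.4, 1599 and 1764 CPM in control and from 112, 165 and 257 to 1838, 1163 and 1992 CPM in dKO. All TAC libraries exceeded all sham libraries (log2 change 3.59 ± 0.30, adjusted p = 7.08e-05). Its changes of 3.95 and 3.22 differed by -0.73 (95% interval -1.88 to 0.42), past the limit of 1.5-fold, so it is called but not alike. Over all genes, 7 were above sham without overlap in control and below it in dKO, and 26 the reverse, against 823 above (5.59%) and 625 below (4.25%) in both.

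The genotype term of the same model was read for the alike genes after their values were seen. It was called for 49 genes higher (0.333%) and 38 genes lower (0.258%) in dKO. Of the 865 alike genes, 6 were higher and 8 lower in dKO, 0.694% and 0.925%. Besides Mybpc2 (0.74 ± 0.12, adjusted p = 0.0111), Myh7 and Nlrc3, the higher ones were Shisa4, Rgs11 and 1700025G04Rik. Besides Acta1, Dstn and Scn4b, the lower ones were Xirp1, Plekhh1, Dact3, Celsr2 and Cdh23. For the other 851 alike genes the genotype term missed the threshold, which does not show equal levels.

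**Figure D5:**
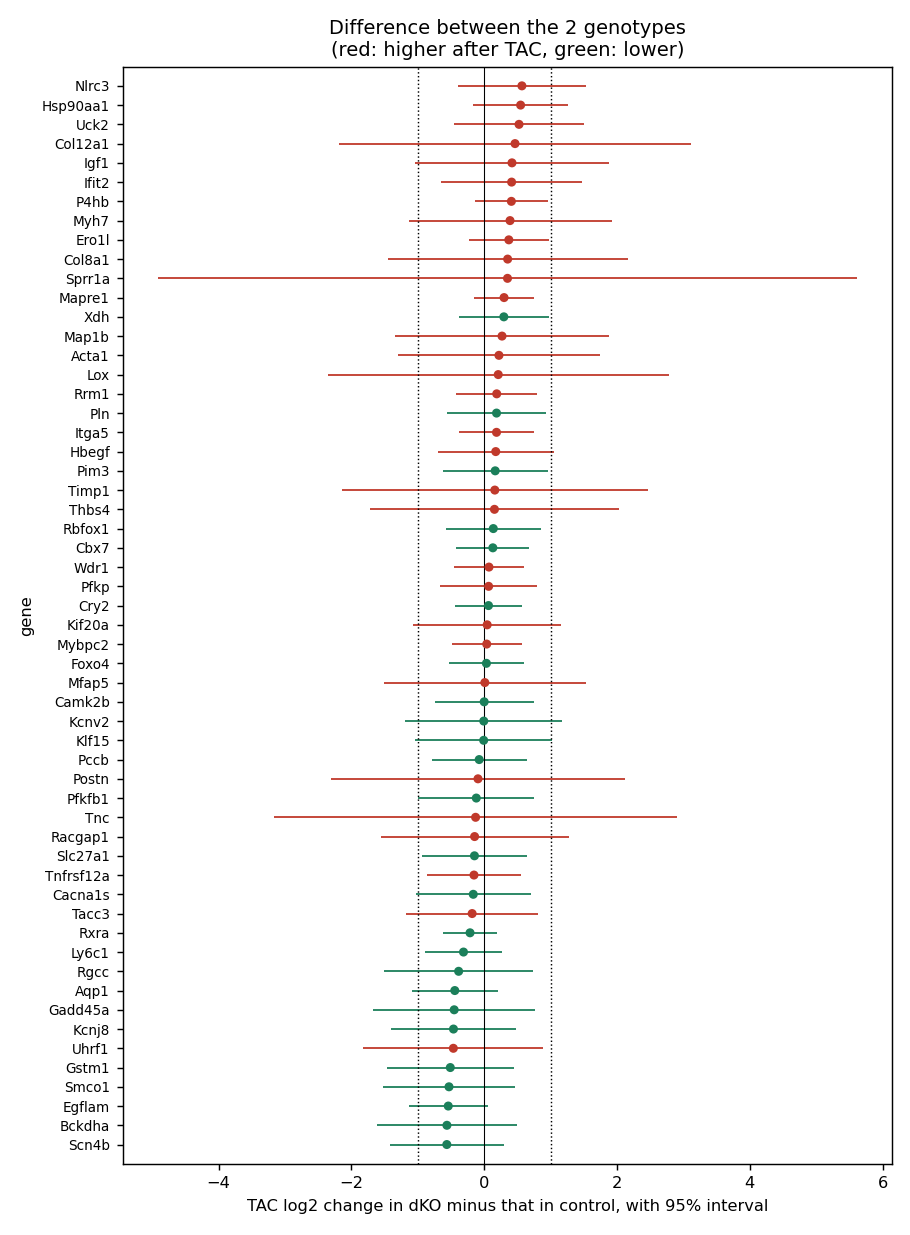
Difference of the log2 change after TAC, dKO minus control, with its 95% interval for 56 named alike genes, red for higher and green for lower after TAC, and dotted lines at a 2-fold difference. All 56 intervals include 0 and 22 lie wholly within 2-fold. The genes were picked for estimates less than 1.5-fold apart, so that the intervals include 0 largely follows from the picking. Mybpc2, Cbx7, Itga5 and Wdr1 are among the narrow ones and Sprr1a, Tnc and Col12a1 among the wide ones.

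Called genes that were not alike show the contrast. Nppb, the B-type natriuretic peptide, went from 272, 264 and 313 to 597, 880.4 and 588 CPM in control and from 100.5, 99.5 and 127 to 621, 754 and 566 CPM in dKO. The levels after TAC overlapped between genotypes while the sham levels did not, and the changes were 1.28 in control and 2.57 in dKO. Ankrd1, a titin-binding protein that responds to stretch, went from 695, 537 and 1128 to 1966, 3390.2 and 2568 CPM and from 495, 472 and 554 to 5631, 5537 and 4843 CPM. Here the dKO levels after TAC were all above those of control, with changes of 1.75 in control and 3.40 in dKO. Star, which carries cholesterol into mitochondria, changed by 3.29 in control and 5.26 in dKO. Among lower genes Cdkn1c, an inhibitor of cyclin-dependent kinases, changed by -1.17 in control and -2.33 in dKO, Phkg1 (phosphorylase kinase) by -1.42 in control and -2.48 in dKO, and the mitochondrial tRNA mt-Ti, which overlaps mt-Nd1, by -1.78 in control and -3.06 in dKO. These 6 genes were picked for their difference between genotypes, which is therefore a description.

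Across the 865 alike genes the change was larger in dKO for 530, 257 of 480 higher and 273 of 385 lower, and over all called genes for 1535 of 2421. Protein-coding genes made up 804. The median exon length was 5398.5 bases in alike higher, 3705 in alike lower and 4305 in all tested genes, and the median level was 8.60, 16.5 and 13.1 CPM. With the trend of each library with exon length removed, 602 genes were alike higher and 440 lower, 409 and 282 of them shared with the counts above. Without dKO sham 1 and dKO TAC 2, 1527 genes were higher (10.2%) and 1213 lower (8.13%) of 14923 tested, and 583 were alike lower.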

How the data were processed

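RNA of cardiomyocyte preparations was sequenced in 12 libraries, 3 in each of 4 groups. The authors deposited raw counts of reads per gene. The submitters' processing notes name Trimmomatic 0.36, STAR 2.5.2b, featureCounts of Subread 1.5.0p3 and build GRCm38.p5. How they were set, which annotation was used and whether strand was read are not given in the sources used. Depth lay between 20082000 and 29675212 counts per library.

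Of 49568 genes, 21344 had no count and 14712 passed edgeR's filter by group. edgeR 4.0.16 (R 4.3.3) was used with TMM scaling, a quasi-likelihood test of genotype plus surgery over all 12 libraries (9 residual degrees of freedom) and Benjamini-Hochberg adjustment over all tested genes. Estimates within a genotype came from a fit with 1 mean per group. Log2 changes are TAC minus sham, with standard errors (SE), and levels are TMM-scaled CPM. The fit was tested on simulated data. limma 3.58.1, DESeq2 1.42.0, other scalings and filters, a term for replicate number and leaving out libraries were alternatives. Near-identical copies were sought with blastn 2.17.0. Overlaps with exons on the opposite strand are not limited to the genes marked in the text. Others are Mybpc2 (Gm44646), Uck2 (Gm2453), Pfkp (Pitrm1), Cbx7 (Apobec3), Pln (Cep85l), Bckdha (B3gnt8) and Phkg1 (Sumf2), among further named genes.

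Genes named in the text were the targeted genes and 7 known load-responsive genes or Srf, the alike genes of at least 5 CPM with the 10 smallest p and the 5 largest changes in each direction, up to 2 alike members of each list, and 3 genes per direction that differed by at least 2-fold between genotypes. Predicted genes and pseudogenes were left out, and 1 gene that the rule picked is not reported here. List members named beyond this were picked after their values were seen. Members and lists were chosen with earlier results of these data known. Replicate numbers are not stated to mark a shared animal or day.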

Additional observations from a re-analysis of the deposited data

How the results depend on the processing

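Scaling, filter and model moved the counts of genes by less than 1.5 times (DESeq2 called 1810 higher and 1503 lower genes, limma-voom 1291 and 996). Leaving out 1 library gave between 960.0 and 1805 higher, 508 and 1376 lower, 396 and 862 alike higher and 231 and 876 alike lower genes. Lower genes numbered 671, 596, 531, 508, 601 and 627 without control sham 1, control sham 3, control TAC 2, dKO TAC 1, dKO TAC 2 and dKO TAC 3. Without control TAC 1 the alike genes were most numerous (862 and 876), without control TAC 2 the alike lower genes fewest (231), and without control sham 2 there were 659. Without dKO sham 1 and dKO TAC 2 together 583 genes were alike lower. With no condition on overlap 940.0 and 745 genes were alike, a looser rule by construction. The mitochondrial share differed by −6.53 points without dKO sham 1, by −4.99 without both libraries (exact permutation p = 0.0167), and by between −6.53 and −2.92 points over single libraries left out. The exact permutation p was 0.105 to 0.335 with any single library but dKO sham 1 left out. The cause of these shifts was not tested. Mkl2, not called, ran from −0.17 to 0.0024 over single libraries left out, changing sign without control TAC 2. Of 1563 repeats of named genes, 1537 kept direction and call, 22 lost and 3 gained a call. Being alike was less stable than being called. Over 23 alternatives Ifit2 was alike in 13, Sprr1a in 14, Nlrc3 and Scn4b in 15 and Nppa in 5, while Mybpc2, Kif20a and Cbx7 were alike in all 23. Of the 480 alike higher genes 346 stayed alike without control sham 2, and of the 385 alike lower genes 218 without control TAC 2.

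With the replicate number as a block, 1356 genes were higher and 918 lower, 1278 and 887 of them shared, and 475 and 354 were alike. Correlations between libraries cannot settle whether numbers pair the samples. Of 18 same-number pairs 11 had a correlation over 0.1 (range −0.661 to 0.51), and 4 of 12 libraries correlated best with their own number. The lowest values, −0.661 and −0.617, each involved dKO sham 1 or dKO TAC 2, which leaned toward short transcripts. No named call changed under the block. Levels under 3 counts, 0.0935 to 0.184 CPM, were not resolved at this depth.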
